A study of Mus musculus with 4 samples.

Results

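The genes described here are 9 integrin and adhesion genes of T lymphocytes: Selplg, Itgal, Itgb2, Itga4, Itgb1, Itgb7, Itgae, Cd44 and Icam1. They were chosen by name, as the genes to which the array annotation maps at least 1 probe set that maps to no other gene, out of 12393 genes so named on the array. This choice, and that of the gene lists below, was made with earlier results of these data known. The 9 genes hold 17 of the 22626 probe sets tested. A gene with several probe sets is represented by the one with the highest mean over the arrays, called its main probe set.

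Splenic CD8 T cells were profiled in 2 groups with 2 arrays each. The TCDD group came from female C57BL/6 mice, 8 to 12 weeks old, killed 24 h after an intraperitoneal dose of TCDD at 10 µg/kg. TCDD is a persistent dioxin that activates the aryl hydrocarbon receptor (AHR), a transcription factor. The DMSO group came from mice of the same strain, sex and age range killed 24 h after an injection of the solvent DMSO. Spleen cells of 4 mice per group were pooled and CD8 T cells sorted to a purity above 99%, and the RNA was amplified before it was labelled. Whether each array had a pool of its own is not stated, so the spread within a group may be technical. Values are log2 expression values made by the authors with RMA, a method that usually corrects background, normalises the arrays to each other and condenses the probes of each set into 1 value. They have no true zero, and levels of different probe sets were not set against each other.

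T cells slow on a vessel wall through selectins, which bind the sulphated and sialylated glycoprotein PSGL-1. They then arrest through integrins, heterodimers of an alpha and a beta chain that signals from inside the cell switch to high affinity. The alpha L chain pairs with beta 2 to form LFA-1, the receptor for ICAM-1. The alpha 4 chain pairs with beta 1 to bind VCAM-1, or with beta 7 to bind the gut addressin MAdCAM-1. The alpha E chain, CD103, pairs with beta 7 to bind E-cadherin on epithelium. CD44 binds hyaluronan and marks antigen-experienced T cells.

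The 7 measured CD8 T cell markers were all above the median of all probe sets, which was 6.01. Their mean was 8.74 and 9.15 in TCDD replicates 1 and 2, and 9.14 and 9.24 in DMSO replicates 1 and 2. Lists of markers of 9 other cell types were also followed, and the means of the neutrophil, dendritic cell and CD4 T cell lists spread most over the arrays. The 4 measured dendritic cell markers averaged 6.84 and 6.44 in the TCDD arrays, against 6.70 and 5.99 in the DMSO arrays. Irf8 spread most among them (8.31 and 7.02 in the TCDD arrays, 8.02 and 5.76 in the DMSO arrays). The 4 CD4 T cell markers averaged 6.74 and 6.07 in the TCDD arrays, against 6.70 and 6.09 in the DMSO arrays, a spread that came from Ctla4 (9.28 and 6.07 in the TCDD arrays, 8.70 and 6.46 in the DMSO arrays). Cd4 itself lay between 6.80 and 7.23. The 5 measured neutrophil markers averaged 5.74 and 6.05 in the TCDD arrays, against 5.62 and 7.20 in the DMSO arrays. That spread came mostly from S100a8 (5.55 and 5.94 in the TCDD arrays, 5.45 and 8.67 in the DMSO arrays) and S100a9. Camp, Ngp and Mmp9 spread far less. The means of the other 6 lists varied by at most 0.429, though single markers in them, such as H2-Aa and H2-Eb1 of the B cell list, varied more. In these bulk samples fewer cells of a type and less RNA per cell cannot be told apart. Over all probe sets the arrays correlated at 0.981 to 0.993, and the closest arrays shared a title number, 1, and not a treatment. The arrays numbered 2 correlated at 0.983, below the 0.988 of TCDD replicate 2 with DMSO replicate 1.

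None of the 9 genes passed the test for a difference between TCDD and DMSO. Itgae, the alpha E chain, was above the DMSO arrays in both TCDD arrays, by 1.27-fold. Selplg, which encodes PSGL-1, and Itgb2, the beta 2 chain, measured lower in both TCDD arrays, and the groups overlapped for the other 6. The differences were tested with limma, with Benjamini-Hochberg adjustment across the whole array, and 0 members were called at an adjusted p under 0.05, where the share called over all probe sets was also 0%. Before adjustment limma gave 1 member, Itgae, a p under 0.05, beside 261 of all 12393 genes by their main probe set. Over all probe sets it gave 439 such values, or 1.94%. Among all genes by their main probe set, 12.9% had both TCDD arrays above both DMSO arrays and 12% had both below, beside 1 and 2 of the 9 members. The median difference was −0.045 over the members and 0.01 over all genes, and the median size of the difference was 0.065 and 0.09. With 2 arrays against 2 a two-sided permutation test cannot go below 0.3333, so none was used.

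**Figure D1:**
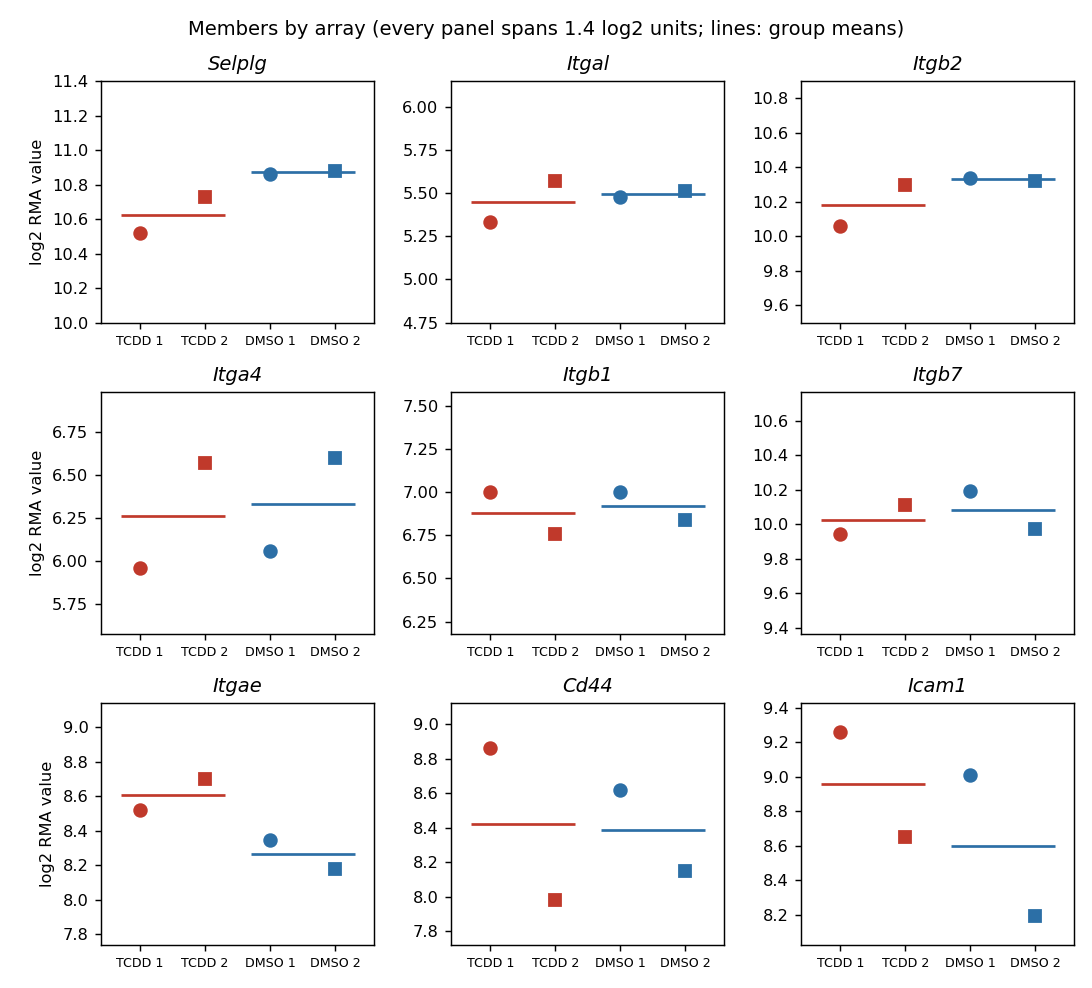
Log2 RMA value of the main probe set of each gene in the TCDD arrays (red) and the DMSO arrays (blue), with circles for arrays numbered 1, squares for arrays numbered 2 and lines for group means (n = 2). The groups are apart for Selplg, Itgb2 and Itgae, and the arrays numbered 1 and 2 are apart for Itgal, Itga4, Itgb1, Cd44 and Icam1.

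Selplg encodes the selectin ligand of T cells. It measured 10.52 and 10.73 in TCDD replicates 1 and 2, and 10.86 and 10.88 in DMSO replicates 1 and 2. Both TCDD arrays were lower, TCDD replicate 1 the more so. The difference was −0.245 with 95% limits of −0.56 and 0.07, and it did not pass (limma adjusted p = 0.9973). Within number 1 it was −0.34 and within number 2 it was −0.15. Of the 7 measured CD8 T cell markers, 3 were also lower in both TCDD arrays, or 42.9%, beside 12% of all genes. The groups overlapped for the other 4. Cd8a (8.17 and 8.74 in the TCDD arrays, 8.91 and 9.46 in the DMSO arrays) and Cd3g ran in the array order of Selplg. How these markers relate to the Selplg and Itgb2 values was not tested.

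Neither chain of LFA-1 passed the test. Itgb2, the beta chain shared by all leukocyte integrins of the beta 2 class, had 10.06 and 10.30 in the TCDD arrays, against 10.34 and 10.32 in the DMSO arrays. TCDD replicate 1 stood below the other 3 arrays, which lay within 0.04 of each other. The difference was −0.15 with limits of −0.48 and 0.18, and within the numbers it was −0.28 and −0.02. Itgal, the alpha L chain, had 5.33 and 5.57 in the TCDD arrays, against 5.48 and 5.51 in the DMSO arrays. Its difference of −0.045 had limits of −0.38 and 0.29, and the groups overlapped. This was the 1 member whose main probe set lay below the array-wide median, a range in which RMA tends to shrink differences, and the annotation gave it no other probe set.

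Icam1 encodes the ligand of LFA-1, which T cells themselves carry. It measured 9.26 and 8.65 in TCDD replicates 1 and 2, and 9.01 and 8.19 in DMSO replicates 1 and 2. The TCDD array was the higher one within both numbers, by 0.25 and 0.46, but the arrays numbered 2 were lower than those numbered 1 in either treatment, so the treatment groups overlapped. The difference was 0.355, or 1.28-fold, with limits of −0.55 and 1.26, and it did not pass (limma adjusted p = 0.9973). Without DMSO replicate 2 it turned to −0.055. With the title number as a block the same difference had limits of 0.004 and 0.71 and still did not pass (adjusted p = 0.9942). Of the 4 measured dendritic cell markers, Irf8 (8.31 and 7.02 in the TCDD arrays, 8.02 and 5.76 in the DMSO arrays) and Flt3 ran in the array order of Icam1. Itgax and Zbtb46 varied little and ran in other orders. Of the 7 measured B cell markers, H2-Aa (11.30 and 10.42 in the TCDD arrays, 10.94 and 9.51 in the DMSO arrays) and H2-Eb1 had the array order of Icam1. The other B cell markers did not. Cd79b, Blk, Cd79a and Ms4a1 were on average higher in arrays numbered 2, by 0.49, 0.28, 0.15 and 0.085. Cd22 differed by −0.02 between the numbers, and Icam1 by −0.715. The part of dendritic cells or B cells in the Icam1 values was not tested.

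Promoter sequence of Icam1 and Itga4 is given because these genes were among the 3 with the widest spread over the arrays and their windows hold the AHR core letters. The RefSeq table (GRCm38.p6) had a window for 5 of the 9 members, Cd44, Icam1, Itga4, Itgb1 and Itgb7, each running from 250 bases before to 50 bases after the annotated start. Capitals mark GCGTG, the core of the AHR response element, and GGAAATTCC, an NF-kB element, both searched on both strands and sharing no bases. The Icam1 window is chr9:21015690-21015989 on the plus strand and the Itga4 window is chr2:79255176-79255475 on the plus strand, each printed 5′ to 3′.
Icam1: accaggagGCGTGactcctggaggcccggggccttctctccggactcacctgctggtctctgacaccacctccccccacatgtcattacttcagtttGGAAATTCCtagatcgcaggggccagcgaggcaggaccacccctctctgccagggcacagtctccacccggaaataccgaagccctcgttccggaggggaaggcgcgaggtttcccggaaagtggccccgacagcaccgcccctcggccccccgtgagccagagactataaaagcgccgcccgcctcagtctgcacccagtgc
Itga4: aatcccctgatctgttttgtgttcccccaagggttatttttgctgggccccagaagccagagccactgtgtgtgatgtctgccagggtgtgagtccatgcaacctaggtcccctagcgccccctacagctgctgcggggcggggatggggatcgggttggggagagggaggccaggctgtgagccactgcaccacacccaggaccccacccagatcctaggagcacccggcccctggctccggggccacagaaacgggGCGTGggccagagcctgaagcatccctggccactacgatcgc
In Icam1 the AHR core began 242 bases before the start and the NF-kB letters 153 bases before it. In Itga4 the AHR core began at base 9 of the transcript. The other 3 windows held neither motif. Of the 32851 mouse windows in the table, 32.4% held the AHR core and 0.317% held the NF-kB letters, so the first is common in windows of this length. A match describes the letters and is no evidence of binding in these cells.

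Itga4 and its beta partners differed little between the treatments. Itga4, the alpha 4 chain, measured 5.96 and 6.57 in TCDD replicates 1 and 2, and 6.06 and 6.60 in DMSO replicates 1 and 2. Its values went with the title number and hardly with the treatment, at −0.10 and −0.03 within the numbers. The overall difference was −0.065 with limits of −0.80 and 0.67. Its other probe sets, both below the median of all probe sets, differed by 0.07 and −0.11 with overlapping groups.

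Itgb1, the beta 1 chain that completes the VCAM-1 receptor, measured 7.0 and 6.76 in the TCDD arrays, against 7.0 and 6.84 in the DMSO arrays. The arrays numbered 1 had the same value. The difference was −0.04 with limits of −0.40 and 0.32. Its 5 other probe sets, all below the median, differed by −0.115 to 0.03, and the groups were apart for 1 of them.

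Itgb7, the beta 7 chain shared by the MAdCAM-1 and E-cadherin receptors, measured 9.94 and 10.11 in the TCDD arrays, against 10.19 and 9.97 in the DMSO arrays. The within-number differences had opposite signs, −0.25 and 0.14, and the overall difference was −0.055 with limits of −0.41 and 0.30. Itgae, the alpha E chain that pairs with beta 7, measured 8.52 and 8.70 in TCDD replicates 1 and 2, and 8.35 and 8.18 in DMSO replicates 1 and 2. Both TCDD arrays were above both DMSO arrays, within number 1 by 0.17 and within number 2 by 0.52. The difference was 0.345 with limits of 0.01 and 0.68, and an unadjusted limma p of 0.04516 that did not survive adjustment (adjusted p = 0.9973). Over 11 alternatives the adjusted p ran from 0.7954 to 1, and the 95% limits included 0 in 8 of them, among them the replicate block (−0.08 and 0.77) and each array left out. Whether the difference of Itgae was unlike that of Itgb7 was not tested. Dendritic cells can also carry CD103, and of the 4 measured dendritic cell markers 3 were higher and 1 lower with TCDD within both numbers, with a median difference of 0.22 (TCDD arrays at a mean of 6.84 and 6.44, DMSO arrays at 6.70 and 5.99). Only Itgax had both TCDD arrays above both DMSO arrays. Zbtb46 had both below, and the groups overlapped for Irf8 and Flt3. None of the 4 ran in the array order of Itgae. The part of dendritic cells in the Itgae values was not tested.

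Cd44, the hyaluronan receptor, measured 8.86 and 7.98 in TCDD replicates 1 and 2, and 8.62 and 8.15 in DMSO replicates 1 and 2. The TCDD arrays were the highest and the lowest of the 4, so the group means were nearly the same. The difference was 0.035 with limits of −0.85 and 0.92, with 0.24 within number 1 and −0.17 within number 2. The interval is wide enough to hold a change of 1.89-fold upward or to 0.555 of the DMSO level. Its other probe set, below the median of all probe sets, differed by −0.095, with both TCDD arrays lower. With 1 array per treatment and number, whether a treatment difference differed between the numbers could not be tested for any gene.

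**Figure D2:**
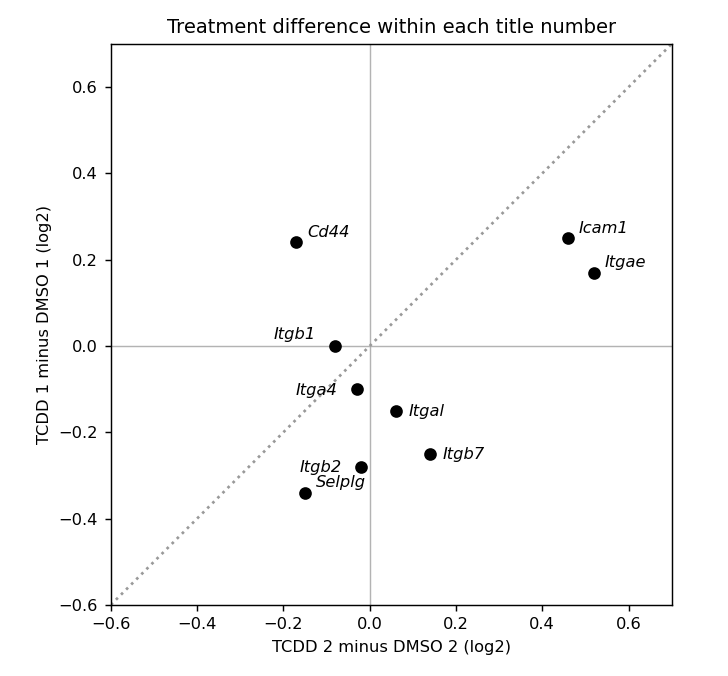
TCDD minus DMSO on the log2 scale between the arrays numbered 1 (vertical axis) and between those numbered 2 (horizontal axis), 1 point per gene, with a dotted line of equal differences. Itgae and Icam1 are above 0 on both axes, Selplg, Itgb2 and Itga4 are below 0 on both, and Cd44, Itgb7 and Itgal change sign.

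Itgal, Itga4, Itgb1, Cd44 and Icam1, 5 of the 9 genes, differed more by title number than by treatment. This share of 55.6% is close to the 53.9% of all genes, so it does not set the members apart. What the number in the titles marks is not stated, so it is used here only as a label. In arrays numbered 2 against arrays numbered 1, Icam1 averaged 8.42 and 9.135, and Cd44 averaged 8.065 and 8.74. These are differences of −0.715 (95% limits −1.22 and −0.21) for Icam1 and −0.675 (−1.02 and −0.33) for Cd44. Itga4 went the other way, with 6.585 in arrays numbered 2 and 6.01 in arrays numbered 1, a difference of 0.575 with limits of 0.33 and 0.82. The direction was the same in both treatments: within TCDD the differences were −0.61 for Icam1, −0.88 for Cd44 and 0.61 for Itga4, and within DMSO they were −0.82, −0.47 and 0.54.

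None of these passed limma with adjustment over all probe sets. The adjusted p was 0.5698 for Icam1, 0.3966 for Cd44 and 0.3189 for Itga4, against unadjusted values of 0.01526, 0.004213 and 0.00218. Of all probe sets 1 was called, or 0.00442%, and 1688 had an unadjusted p under 0.05, or 7.46%. The called one, named after its value was seen, belongs to Rgs1, a regulator of G protein signalling, at −3.32. Both arrays numbered 2 were above both numbered 1 for 2 of the 9 members, Itga4 and Itgal, and below for 3, Icam1, Cd44 and Itgb1. Over all genes these shares were 22.4% and 14%. The median size of the difference by number was 0.135 over the members and 0.11 over all genes.

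The other probe sets of these genes did not all show it. The second Cd44 probe set differed by −0.005 between the numbers, and those of Itga4 by −0.03 and 0.24. Of the 6 Itgb1 probe sets 4 were lower in the arrays numbered 2, with −0.20 for the main one and −0.41 for the largest. All these other probe sets lay below the median of all probe sets.

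**Figure D3:**
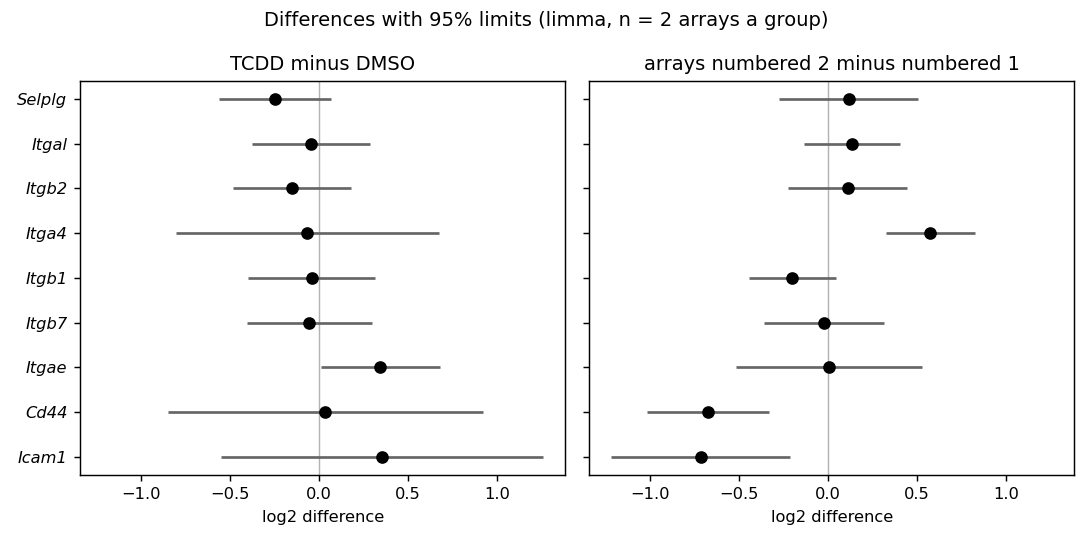
Log2 difference of each gene with its 95% limits from limma, for TCDD minus DMSO (left) and for arrays numbered 2 minus arrays numbered 1 (right), n = 2 arrays a group. In the left panel the limits exclude 0 for Itgae, from 0.01 to 0.68, and in the right panel for Itga4, Cd44 and Icam1; none passed the adjustment over all probe sets.

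For the 3 genes with the widest spread over the arrays, the gene with the nearest profile was found by the Euclidean distance between log2 values centred on each gene's mean, over 4 arrays and 7381 candidate genes above the median. Icam1 was nearest to Zfp622, a zinc finger gene, at a distance of 0.036. Cd44 was nearest to Zmynd8 at 0.062. Itga4 was nearest to Stk4, at 0.065, closely followed by Rab4b at 0.071 and Acp5 at 0.089. Stk4 encodes the kinase MST1, which acts in integrin activation in lymphocytes, and it measured 6.93 and 7.51 in the TCDD arrays, against 6.98 and 7.48 in the DMSO arrays. The distances describe these 4 arrays only.

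Of 81 other adhesion genes 71 were measured, 51 of them above the median of all probe sets, and 0 passed limma for TCDD against DMSO. Before adjustment 2 of the 71 had a limma p under 0.05, beside 261 of all 12393 genes by their main probe set. Both TCDD arrays were above both DMSO arrays for 9 of the 71, or 12.7%, and below for 12, or 16.9%, beside 12.9% and 12% of all genes. Their median difference was 0, against 0.01 over all genes. The 2 genes with an unadjusted p under 0.05 were both among the membrane linkers and other adhesion molecules, and both were lower with TCDD. Whether that list differs from the others was not tested.

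Msn encodes moesin, which ties membrane proteins such as CD44 and PSGL-1 to actin. It measured 11.05 and 11.02 in the TCDD arrays, against 11.35 and 11.37 in the DMSO arrays. The arrays of a group lay close together and the groups were apart, with a difference of −0.325 and limits of −0.59 and −0.06, and an unadjusted limma p of 0.02445 (adjusted p = 0.9973). Its other probe set, below the median, differed by −0.045. Cd47, an integrin-associated protein, measured 8.89 and 8.84 in the TCDD arrays, against 9.23 and 9.32 in the DMSO arrays. Its difference of −0.41 had limits of −0.68 and −0.14 and an unadjusted limma p of 0.01247 (adjusted p = 0.9973). Its other probe sets above the median differed by −0.34 and −0.005, both with overlapping groups. A further one, below the median, went the other way at 0.14, also with overlapping groups. Cd48, the ligand of CD2 in mice, differed by −0.395 with overlapping groups. The 13 measured genes of that list had a median of −0.005.

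The 26 measured genes of integrin activation and tail binding had a median of −0.0175. In both TCDD arrays 3 were above and 5 below, or 11.5% and 19.2%, beside 12.9% and 12% of all genes. Rap1b, a small GTPase that activates integrins, measured 10.16 and 9.65 in the TCDD arrays, against 9.99 and 10.76 in the DMSO arrays. DMSO replicate 2 stood highest and the groups overlapped, so the difference of −0.47 had limits of −1.30 and 0.36. Its other probe sets went both ways, at 0.39 and −0.545. Lims1, an adaptor of the integrin-linked kinase complex, differed by −0.37 with both TCDD arrays lower. Its other probe sets, below the median, differed by −0.315 and 0.185 with overlapping groups. Vav1, an exchange factor downstream of the T cell receptor, differed by 0.405 with overlapping groups and by −0.785 between the numbers.

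The 15 other integrin subunits measured had a median of 0.025, with 2 above and 2 below, or 13.3% each, beside 12.9% and 12% of all genes. Itgav, the alpha V chain, differed by 0.205 with overlapping groups. Itgax, a chain of dendritic cells that is also among the dendritic cell markers, had both TCDD arrays higher, with 6.80 and 6.75 against 6.67 and 6.62 in the DMSO arrays, a difference of 0.13. Itgb3, the beta 3 chain of platelets, differed by −0.125 with both TCDD arrays lower.

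The 9 measured ligands and selectins had a median of 0. Icam2, another ligand of LFA-1, measured 8.37 and 9.21 in the TCDD arrays, against 8.73 and 8.34 in the DMSO arrays. The TCDD arrays were widely apart, and the difference of 0.255 had limits of −0.57 and 1.08. Vcam1, the ligand of the alpha 4 beta 1 integrin, differed by 0.15, and the matrix ligand gene Fn1 by −0.085, both with overlapping groups. The other Vcam1 probe sets had the opposite sign, at −0.11 and −0.555, also with overlapping groups. The 8 genes of selectin ligand glycosylation had a median of −0.0175. St3gal6, a sialyltransferase of the kind that caps selectin ligands, had 6.33 and 6.34 in the TCDD arrays, against 6.80 and 6.45 in the DMSO arrays. Both of its probe sets had both TCDD arrays lower, with differences of −0.29 and −0.32. B4galt1, a galactosyltransferase, differed by −0.115 and the tyrosine sulphotransferase gene Tpst1 by 0.08.

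**Figure D4:**
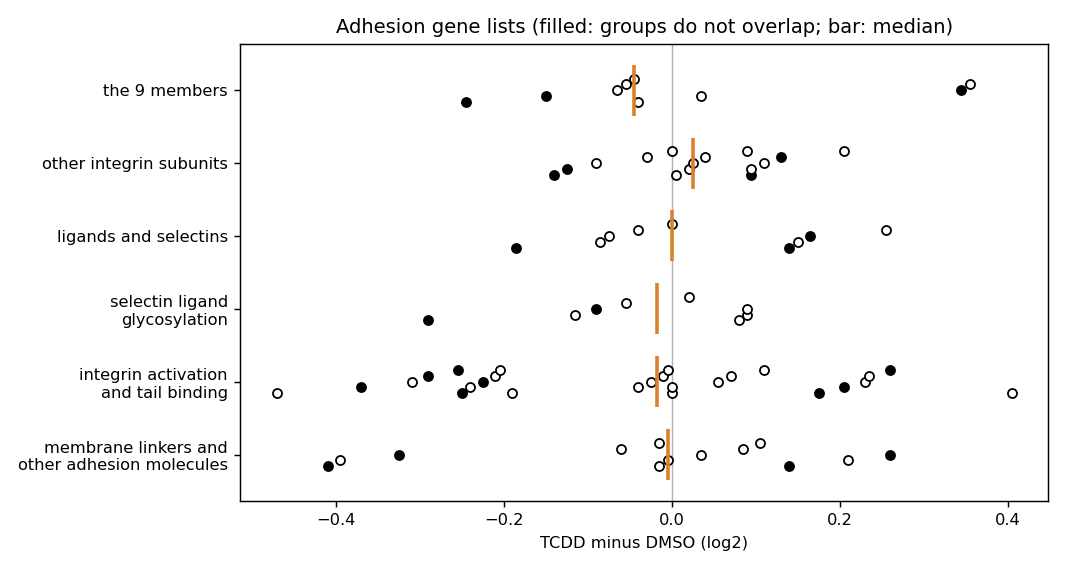
TCDD minus DMSO on the log2 scale for the 9 members and for the measured genes of 5 adhesion lists, 1 point per gene by its main probe set; filled points have groups that do not overlap and bars are list medians. The list medians lie between −0.045 and 0.025, and the lowest point is Rap1b at −0.47 and the highest is Vav1 at 0.405.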

How the data were processed

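The deposited table covers 4 arrays of sorted splenic CD8 T cells. Per the submitters' processing notes the authors used RMA (no version is given), and the deposited values are on a log2 scale, as read from their range. Of 22690 probe sets 64 controls were left out. Gene names come from GEO's platform annotation, and a RefSeq table (GRCm38.p6) supplied current symbols by Entrez number: 20380 probe sets had 1 symbol, 691 several and 1555 none.

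Differences were fitted with limma 3.58.1 in R 4.3.3 (lmFit, eBayes, no covariate, no filter) over 22626 probe sets, with Benjamini-Hochberg adjustment and a threshold of 0.05, and the step was tested on simulated data. The number of arrays limits the precision. The members and lists were chosen with earlier results of these data known. Named were the 9 members with all their probe sets, 3 genes with the largest difference above the median from each adhesion list, and the nearest profile for 3 members. Alternatives were a centring on array medians, quantile normalisation, a filter at the median, a variance trend with robust fitting, removal of probe sets marked _x_at, _s_at or _a_at, gene means, a replicate block and each array left out.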

Additional observations from a re-analysis of the deposited data

How the results depend on the processing

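For TCDD minus DMSO limma called 0 probe sets or genes in the main fit (439 at an unadjusted p under 0.05) and 0 under each of 11 alternatives, the replicate block among them. For the title number it called 1 in the main fit, 11 with the trend and robust fitting, 7 for gene means, 0 with treatment as a covariate (the same model as the replicate block) and between 0 and 0 as arrays were left out. The cause was not tested. No member passed in either comparison under any alternative run. Same-numbered arrays deviated together over all probe sets (correlation 0.234, and 0.856 over the main probe sets of the 9 members). The value for the members rests on 9 points, of which Icam1, Cd44 and Itga4 lie farthest out, so the 2 values are not set against each other. With 2 arrays of each number and no label that explains it, the number is not taken to pair the arrays. The block changed no member's call. It narrowed the TCDD limits most for Icam1 (0.004 and 0.71), Cd44 (−0.42 and 0.49) and Itga4 (−0.375 and 0.245). Where an array is left out, the lone one of its group takes its spread from the other group.

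Of 124 member values under settings that keep all arrays 4 changed sign, all small: for TCDD minus DMSO Itgb1 at 0.03 without the marked probe sets and Cd44 at −0.03 for gene means, and for the number Itgae at −0.035 after centring and Itgb7 at 0.0187 after quantile normalisation. With arrays left out, 16 of 72 changed sign. For TCDD minus DMSO, Itgal ran from −0.165 to 0.075 (turned without TCDD replicate 1), Itga4 from −0.37 to 0.24 and Cd44 from −0.405 to 0.475 (both turned without TCDD replicate 1 or DMSO replicate 2), and Itgb7 from −0.165 to 0.055 (turned without either replicate 1). Itgb1 ran from −0.16 to 0.08 and turned without TCDD replicate 2 or DMSO replicate 1, and Icam1 from −0.055 to 0.765, turned without DMSO replicate 2. Selplg (−0.35 to −0.14), Itgb2 (−0.27 to −0.03) and Itgae (0.255 to 0.435) could not change sign, because their groups do not overlap. For the number, Selplg ran from −0.055 to 0.285, Itgb2 from −0.03 to 0.25, Itgae from −0.255 to 0.265 and Itgb7 from −0.15 to 0.10, while Itga4 (0.525 to 0.625), Cd44 (−0.795 to −0.555) and Icam1 (−0.945 to −0.485) kept their sign, as arrays that do not overlap must. The filter at the median left out Itgal.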
